A study of Bos taurus with 31 samples.

Results

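The SLC25 genes code for the mitochondrial carriers, a large family of membrane proteins that move nucleotides, acids, amino acids, cofactors and ions across the inner mitochondrial membrane. They were described in mammary epithelial organoids of cows (Bos taurus) at a virgin and a lactating stage. Members were the rows of the count table with a name of SLC25A followed by a number, taken once where counts were identical in every library. The rule found 40 rows that form 39 counted loci, of 13407 loci in the table. SLC25A23 and SLC25A41 share 1 locus and are given as SLC25A23. The RefSeq table for cattle holds SLC25A2, SLC25A10, SLC25A31, SLC25A45, SLC25A47 and SLC25A53 as well, which have no row and are not analysed here.

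Organoids here are clumps of mammary epithelium that remained after biopsy tissue had been digested with collagenase, trypsin and hyaluronidase and single cells had been spun away. Virgin biopsies (15 libraries) were taken at 14 months of age and lactating biopsies (16 libraries) between days 40 and 60 of lactation, in 16 dairy cows. For 15 cows both stages were sequenced, and for the remaining cow (L495) the lactating one only. Libraries are named by stage letter and animal number (V479, L479). The cows differed between stages in age and parity as well, and these cannot be told apart from lactation.

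A mitochondrial carrier has a repeated fold that opens in turn to the matrix and to the space between the membranes, and many members exchange 1 substrate for another. The ADP/ATP carriers export the ATP made by respiration, the phosphate carrier brings in phosphate for its synthesis, and the citrate carrier passes acetyl units to the cytosol for fatty acid synthesis. Other members serve the malate-aspartate shuttle, entry of long-chain fatty acids as carnitine esters, iron for haem, and supply of cofactors that mitochondria do not make. The lactating mammary epithelial cell makes large amounts of protein, fat and lactose, which draw on ATP, citrate and amino acids.

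The depth, with each locus counted once, was about 12500000 to 38800000 reads for virgin and 17600000 to 45500000 for lactating libraries. Levels are given as CPM, the usual depth-scaled read count, over libraries scaled by TMM factors, and compare 1 gene between libraries. The luminal epithelial markers summed to 1943 to 7685 CPM in virgin and 1378 to 3363 CPM in lactating libraries, and the 7 milk protein genes all rose. V479 stood apart: it held the lowest or highest virgin value in 55.8% of all tested rows and in 23 of the 39 SLC25 loci. L538 and L478 held an extreme among lactating libraries in 28.6% and 22.2% of rows. Of the 13 members that fell, V479 was the lowest virgin library in 6 and L478 the highest lactating one in 6. Counts with and without these 3 libraries are therefore given below. Markers of other cell types moved with the stage: all 10 endothelial and all 11 tested leukocyte markers rose in lactation. Of 5 adipocyte markers 3 rose and 1 (PLIN1) fell, and of 10 luminal epithelial markers 2 rose and 6 fell. Of 7 fibroblast markers 1 rose and 4 fell (COL1A1, COL1A2, COL3A1 and DCN). Yet COL1A1, COL1A2 and COL3A1 were higher in lactation in 8, 9 and 8 of 15 cows, and DCN in 3. The fibroblast sum was highest in V502, at 21385 CPM, with medians of 986 CPM in virgin and 1112 CPM in lactating libraries. Of 7 myoepithelial markers 2 rose (OXTR and MYH11) and 2 fell (KRT5 and KRT14, whose loci are shared with other keratin genes). The myoepithelial sums ran from 922 to 5350 CPM in virgin and from 804 to 1761 CPM in lactating libraries. Endothelial markers summed to between 34.2 and 758 CPM in virgin and between 254 and 1673 CPM in lactating libraries. The leukocyte sums did not overlap, at 20.3 to 113 CPM and 154 to 605 CPM. The endothelial and leukocyte level was entered as a covariate, and the part of the other lists was not tested. Because these are bulk samples, fewer cells of a type and less RNA per cell cannot be told apart.

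All 39 loci passed the filter on low counts. In lactation 5 rose and 13 fell, and 21 were not called (edgeR quasi-likelihood fit, called at a Benjamini-Hochberg adjusted p below 0.05). That is 12.8% higher and 33.3% lower, against a background of 24.2% and 30.9% of 13180 tested rows. The share that fell was thus near the background, and the share that rose was below it. The median log2 fold change was -0.11 for the family and -0.08 for all rows. A change of more than 2-fold was called for SLC25A21 alone (edgeR glmTreat), against 5.39% of rows higher and 2.80% lower. No member had stage ranges that failed to overlap, which 1.15% of rows did in the higher and 0.781% in the lower direction. Summed over the family without SLC25A44, whose locus holds other genes, but with the joined loci of SLC25A30 and perhaps SLC25A37, the level was 1188 ± 168 CPM (SD, n = 15) in virgin and 975 ± 38.9 CPM (SD, n = 16) in lactating libraries.

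The split depended on how the fit was made. With the animal as a block over the 30 paired libraries, 9 members rose and 10 fell (background 27.9% and 27.8%), and the median was 0.01. Leaving out the cow of V479 from that fit gave 10 and 12 (29.9% and 29.7%). Without V479, L478 and L538 the counts were 9 and 12 (background 27.5% and 33.3%), and without V479 alone 8 and 12 (27.5% and 32.6%). Without TMM factors the median of all rows moved from -0.08 to -0.56, and then 1 member (SLC25A21) rose and 25 fell (10.5% and 58.8% of rows). With the summed endothelial and leukocyte marker level as a covariate, 1 (SLC25A28) rose and 2 (SLC25A22 and SLC25A39) fell (8.25% and 12.1% of rows). The endothelial sums of the stages overlap and the leukocyte sums do not, so that fit separates stage from marker level poorly. Without the 5 cows whose virgin title carries a letter, of a meaning the labels do not give, 4 rose and 10 fell. Of the 13228 rows tested in that fit, 2416 were called higher and 3063 lower, so calls were also fewer over the whole table.

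**Figure D1:**
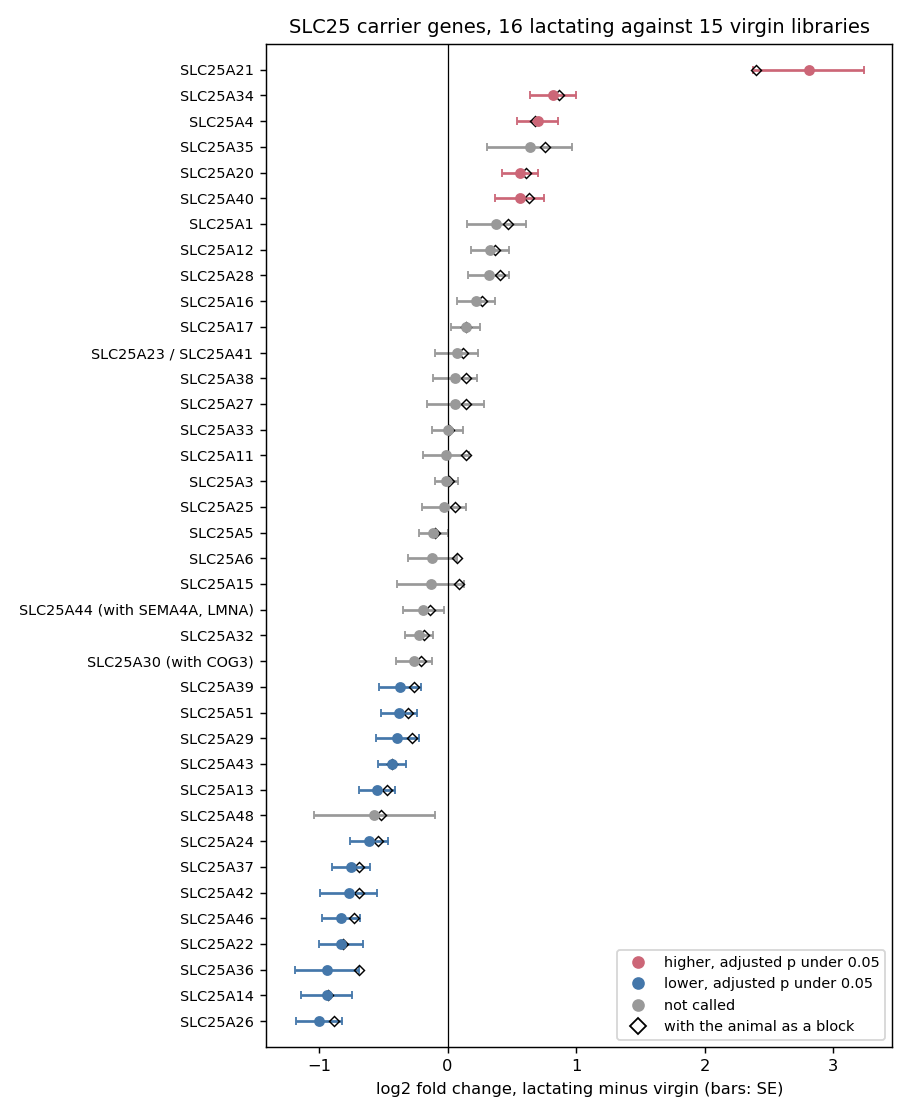
Log2 fold change (lactating minus virgin) of 38 of the 39 SLC25 loci from the edgeR fit, with bars for 1 SE and coloured by call; open diamonds are values with the animal as a block. SLC25A21 stands apart at 2.81, and the other called members lie between -1.0 and 0.82.

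SLC25A21, which carries 2-oxoadipate and 2-oxoglutarate in the breakdown of lysine and tryptophan, had the largest difference of the family and 1 of its lowest levels. It lay between 0.0547 and 0.509 CPM in virgin libraries, with a median of 0.115, and between 0.117 and 2.44 CPM in lactating ones, with a median of 0.959. All 15 cows were higher in lactation, which 7.41% of rows showed (5.52% were lower in every cow), and 10 of 16 lactating libraries exceeded the highest virgin one. Its log2 fold change was 2.81 ± 0.43 (SE, adjusted p = 2.02e-06, edgeR quasi-likelihood test), and 2.40 with the animal as a block. Behind these values stand 1 to 14 reads per virgin library and 5 to 97 per lactating one, over a locus of 521036 bases that includes its introns. With the marker level as a covariate its log2 fold change was -0.77 (adjusted p = 0.478, edgeR).

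The other carriers of carboxylic acids with a row were not called. SLC25A1, the citrate carrier, ran from 3.42 to 22.4 CPM in virgin libraries (median 4.87) and from 4.62 to 17.3 CPM in lactating ones (median 7.62). The ranges overlap, V479 is the highest virgin library, and 10 of 15 cows were higher in lactation. The log2 fold change was 0.38 ± 0.23 (adjusted p = 0.16, edgeR), and 0.47 with the animal as a block (adjusted p = 0.0286). Without V479 it was 0.65 (adjusted p = 0.0019). The sign depended on the fit: it was -0.09 without TMM factors (adjusted p = 0.671, edgeR). With the marker level as a covariate it was -0.87 (adjusted p = 0.108, edgeR). SLC25A11, the oxoglutarate/malate carrier of the malate-aspartate shuttle, stood at -0.01 ± 0.18 (adjusted p = 0.968), over a locus 2.06 times its RefSeq span. It was higher in 12 of 15 cows, at 0.14 with the animal as a block (adjusted p = 0.437) and at 0.23 without V479, its highest virgin library (adjusted p = 0.0956). Without TMM factors SLC25A11 was called lower, at -0.43 (adjusted p = 0.0215, edgeR), as were 58.8% of all rows. With the marker level as a covariate it stood at -0.52 (adjusted p = 0.29, edgeR).

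Among the enzymes these carriers feed, in citrate metabolism and the malate-aspartate shuttle, 1 of 10 rose and 8 fell, against 24.2% and 30.9% of all rows. IDH1, the cytosolic NADP-dependent isocitrate dehydrogenase, rose from 146 ± 59.7 (SD, n = 15) to 413 ± 140 CPM (SD, n = 16), a log2 fold change of 1.5 ± 0.20 (adjusted p = 1.98e-07, edgeR). ACLY, which splits citrate in the cytosol, fell by 1.07 on the log2 scale (adjusted p = 1.94e-09, edgeR), in all 15 cows. ME1, malic enzyme, fell by 1.5 (adjusted p = 7.17e-07) and GOT1, the cytosolic aspartate aminotransferase, by 0.72 (adjusted p = 6.48e-05).

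Of the ADP/ATP carriers, SLC25A4 rose while SLC25A5 and SLC25A6 were not called. SLC25A4, the form typical of muscle and heart, lay between 10.1 and 26.9 CPM in virgin libraries (median 13.8) and between 15.8 and 41.9 CPM in lactating ones (median 24.5). It was higher in 14 of 15 cows, and 7 lactating libraries exceeded every virgin one. The log2 fold change was 0.70 ± 0.16 (SE, adjusted p = 3.94e-04, edgeR). With the marker level as a covariate it was -0.19 (adjusted p = 0.686), and without TMM factors 0.14 (adjusted p = 0.445).

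SLC25A6 and SLC25A5 had the highest levels of the family per length, at 45.6 and 15.5 RPKM (reads scaled to depth and to each kilobase of locus span, mean over all libraries). SLC25A4 followed at 4.96 RPKM, in sixth place. SLC25A6 ran from 102 to 684 CPM in virgin (median 178) and from 160 to 293 CPM in lactating libraries (median 206). SLC25A5 ran from 44.1 to 102 CPM (median 71.7) and from 48.8 to 83.7 CPM (median 67.2). In both, the lactating range lay inside the virgin range, and the cows were divided, with 8 of 15 higher for SLC25A6 and 7 for SLC25A5. As a share of the summed RPKM of the 3 carriers within a library, SLC25A4 went from 6.30% ± 2.55 (SD, n = 15) to 9.32% ± 1.84 (SD, n = 16), higher in 13 of 15 cows. SLC25A3, the phosphate carrier, was among the most even members, at 68.3 to 139 CPM in virgin (median 106) and 87.7 to 127 CPM in lactating libraries (median 110). Its log2 fold change was -0.01 ± 0.09 (adjusted p = 0.967, edgeR), over a locus 2.81 times its RefSeq span.

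The carriers that exchange ATP-Mg for phosphate set the adenine nucleotide content of the matrix under control of calcium. SLC25A24, 1 of these, ran from 23.1 to 125 CPM in virgin (median 75.9) and from 33.6 to 80.8 CPM in lactating libraries (median 47.8), and was lower in 14 of 15 cows. The exception was the cow of V479, whose virgin library was the lowest. It fell by 0.61 ± 0.15 on the log2 scale (adjusted p = 8.77e-04, edgeR). SLC25A25 stood at -0.03 ± 0.17 (adjusted p = 0.889) and SLC25A23 at 0.07 ± 0.17 (adjusted p = 0.752). Within the set, the SLC25A24 share of RPKM went from 59.2% ± 15.3 to 49.0% ± 6.47 and the SLC25A25 share from 36.9% ± 13.9 to 45.8% ± 6.27 (SD, n = 15 and 16), each in 13 of 15 cows. SLC25A42, which brings coenzyme A into the matrix, was low, at 0.139 to 0.918 CPM in virgin (median 0.437) and 0.145 to 0.445 CPM in lactating libraries (median 0.262). It fell by 0.77 ± 0.22 (adjusted p = 0.00392, edgeR), on 5 to 52 reads per library and a locus 0.246 times its RefSeq span. The peroxisomal carrier SLC25A17 was not called.

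**Figure D2:**
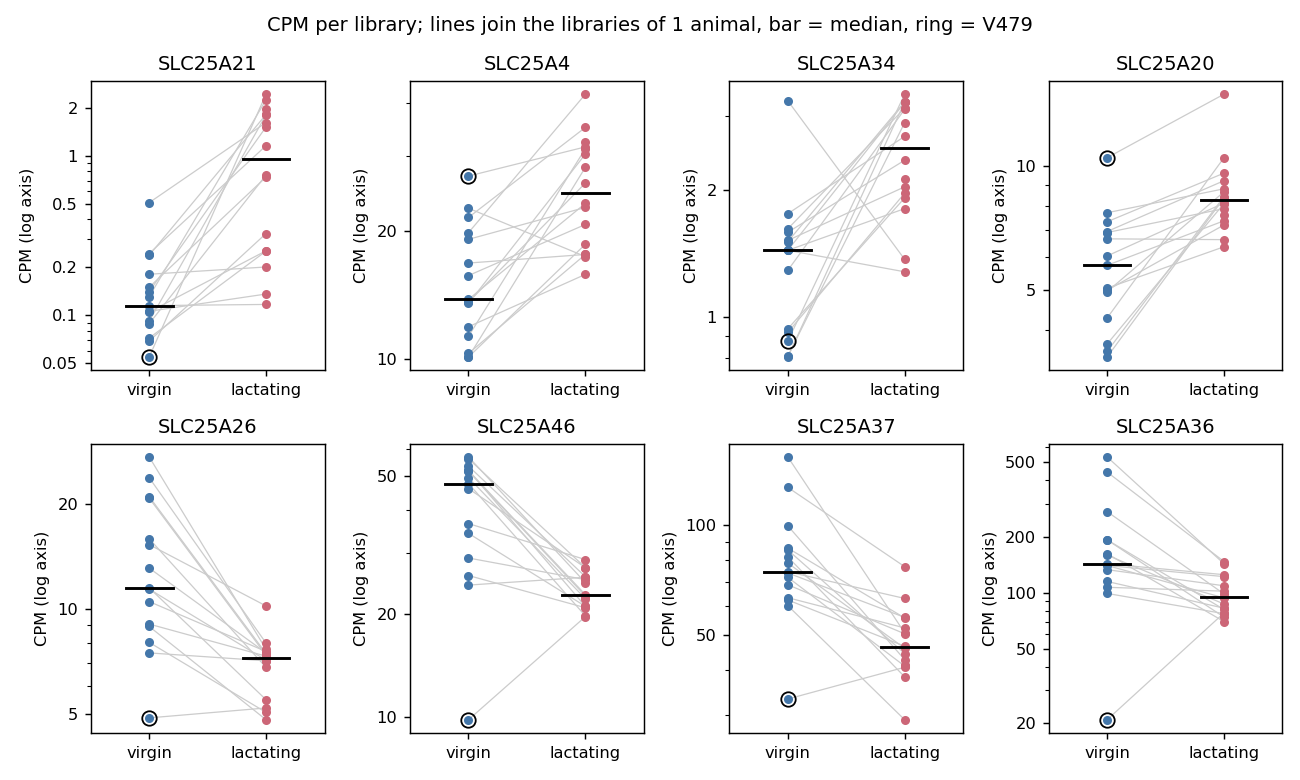
CPM per library on log axes for 8 called SLC25 genes; points are libraries, grey lines join the libraries of 1 animal, bars mark medians and the ring marks V479. SLC25A21, SLC25A4, SLC25A34 and SLC25A20 lie higher in most cows in lactation and the 4 genes below lie lower, and in each panel the stages overlap.

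Amino acid carriers gave 0 rises and 3 falls among 7 members with a row (24.2% and 30.9% of all rows), and 1 rise (SLC25A12) and 2 falls with the animal as a block. SLC25A22, a glutamate carrier, fell from a median of 10.2 CPM (4.40 to 20.4) to 5.32 CPM (3.09 to 9.51), by 0.83 ± 0.17 on the log2 scale (adjusted p = 1.37e-04, edgeR). It was lower in 13 of 15 cows, and 3 lactating libraries lay under the lowest virgin one. It was also 1 of the 2 members called lower with the marker level as a covariate, at -1.54 (adjusted p = 0.00195, edgeR), in a fit that separates stage from marker level poorly. SLC25A13 and SLC25A12 are the 2 aspartate-glutamate carriers of the malate-aspartate shuttle. SLC25A13 (citrin, the liver form) ran from 2.25 to 6.52 CPM in virgin (median 3.94) and from 1.89 to 3.90 CPM in lactating libraries (median 2.93). It fell by 0.55 ± 0.14 (adjusted p = 0.00156, edgeR), in 12 of 15 cows.

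SLC25A12 (aralar, the form of brain and muscle) stood at 0.33 (adjusted p = 0.0524, edgeR) and rose by 0.37 with the animal as a block (adjusted p = 0.0354). The SLC25A12 share of the pair by RPKM went from 64.2% ± 11.1 (SD, n = 15) to 77.3% ± 4.65 (SD, n = 16). The virgin shares ran from 41.4% to 86.0% and the lactating ones from 70.2% to 85.5%, so the ranges overlap, with 13 of 15 cows higher. From counts the means were 47.7% and 62.7%. This share does not depend on how libraries are scaled, and was described with no test.

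SLC25A29, a carrier of basic amino acids, was near the threshold at -0.39 (adjusted p = 0.0466, edgeR). The call was lost when any of 18 single libraries was left out, and with the animal as a block (adjusted p = 0.129). It was already lost in the same 30 libraries without the block (adjusted p = 0.0706). SLC25A15, the ornithine carrier, SLC25A38, a glycine carrier of haem synthesis, and SLC25A44, a carrier of branched-chain amino acids, were not called. The SLC25A44 locus spans 5.18 times the RefSeq gene and is shared with SEMA4A and LMNA, so its 10.1 RPKM cannot be assigned to the carrier. That locus ran from 639 to 2189 CPM in virgin (median 904) and from 543 to 1501 CPM in lactating libraries (median 783), with overlap. Of 7 enzymes of ornithine and glutamate metabolism, 3 rose and none fell (24.2% and 30.9% of all rows). GLUD1, glutamate dehydrogenase, rose by 0.56 ± 0.09 in all 15 cows (adjusted p = 2.76e-06, edgeR), and ODC1 and ARG2 rose by 0.40 and 0.59.

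SLC25A20, the carnitine-acylcarnitine carrier that brings long-chain acyl groups to beta-oxidation, rose. It ran from 3.43 to 10.5 CPM in virgin (median 5.74) and from 6.37 to 15.0 CPM in lactating libraries (median 8.26), and 14 of 15 cows were higher in lactation. V479 and L479 had the highest value of their stage. The log2 fold change was 0.56 ± 0.14 (adjusted p = 0.00128, edgeR), and 0.05 without TMM factors (adjusted p = 0.789). CPT1A, which makes the acylcarnitines at the outer membrane, rose by 1.79 ± 0.17 in all 15 cows (adjusted p = 3.33e-10). CPT2, which returns them to acyl-CoA inside, fell by 0.34 ± 0.13 (adjusted p = 0.0265). In all, 2 of 5 carnitine shuttle enzymes rose and 1 fell (24.2% and 30.9% of all rows). SLC25A48, a relative of SLC25A20, varied most among virgin libraries, from 0.0364 to 4.16 CPM, and stood at -0.57 ± 0.47 (adjusted p = 0.309).

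Cofactor carriers gave 1 rise and 3 falls among 7 members (24.2% and 30.9% of all rows). SLC25A26 imports S-adenosylmethionine, the methyl donor, and had the largest fall of the family in the stage fit. It ran from 4.87 to 27.3 CPM in virgin (median 11.5) and from 4.81 to 10.2 CPM in lactating libraries (median 7.23). It fell by 1.00 ± 0.18 on the log2 scale (adjusted p = 2.87e-05, edgeR), in 14 of 15 cows. The lactating values were close together, and V479 was the lowest of the virgin values. SLC25A51, the NAD+ carrier, ran from 5.36 to 28.2 CPM (median 22.6) and from 12 to 18.1 CPM (median 15.2). It fell by 0.38 ± 0.14 (adjusted p = 0.0193), and the call was lost with the animal as a block (adjusted p = 0.087). Without V479, its change was -0.45 (adjusted p = 1.59e-04).

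SLC25A39 and SLC25A40 carry glutathione. SLC25A40 was low, at 0.328 to 1.57 CPM in virgin (median 0.979) and 0.884 to 2.29 CPM in lactating libraries (median 1.38), over a locus 0.496 times its RefSeq span. It rose by 0.56 ± 0.19 (adjusted p = 0.012, edgeR), in 12 of 15 cows. Without the 5 cows with a lettered virgin title it stood at 0.63 (adjusted p = 0.0536). SLC25A39 made up at least 98.8% of the pair by RPKM in every library, and ran from 19.3 to 87.7 CPM (median 26.5) and from 19 to 30.4 CPM (median 24.1). Its fall of 0.37 (adjusted p = 0.0471) was lost when any of 18 libraries was left out and with the animal as a block (adjusted p = 0.0991). Without V479, its highest library, it stood at -0.17 (adjusted p = 0.15). With the marker level as a covariate it was -1.02 (adjusted p = 0.0119).

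SLC25A16, linked to coenzyme A, and SLC25A32, linked to folate and FAD, were not called.

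SLC25A28 and SLC25A37 are the mitoferrins, which bring iron into the matrix for haem and iron-sulfur clusters, SLC25A37 being known from red cell precursors. SLC25A37 ran from 33.3 to 154 CPM in virgin (median 74.5) and from 29.2 to 76.9 CPM in lactating libraries (median 46.2). It fell by 0.75 ± 0.15 on the log2 scale (adjusted p = 7.02e-05, edgeR), and 14 of 15 cows were lower. Its locus is 7.18 times its RefSeq span, so reads of a neighbour may be joined to it. With the marker level as a covariate it stood at 0.24 (adjusted p = 0.478). None of the 5 erythroid markers had a row, so the part of red cells was not tested.

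SLC25A28, the mitoferrin of most tissues, ran from 17.5 to 67.7 CPM (median 27.3) and from 26.9 to 59.7 CPM (median 39.8), and was higher in 13 of 15 cows. It was not called (0.32, adjusted p = 0.0887, edgeR), but rose by 0.41 with the animal as a block (adjusted p = 0.0272). With the marker level as a covariate it rose by 1.0 (adjusted p = 0.019, edgeR), the only member called higher in that fit. Its share of the mitoferrin RPKM went from 63.3% ± 6.39 (51.4% to 77.6%, SD, n = 15) to 78.4% ± 5.24 (68.5% to 84.5%, SD, n = 16). That share was higher in 14 of 15 cows, with V479 highest among virgin libraries. From counts, with no correction for length, the share was 28.2% and 45.4%, so which mitoferrin is the more abundant depends on the length used, and the locus of SLC25A37 is long. Of 6 haem and iron-sulfur enzymes, 3 rose and 1 fell (24.2% and 30.9% of all rows). ISCU, the iron-sulfur scaffold, rose by 0.68 ± 0.13 (adjusted p = 5.27e-05, edgeR).

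**Figure D3:**
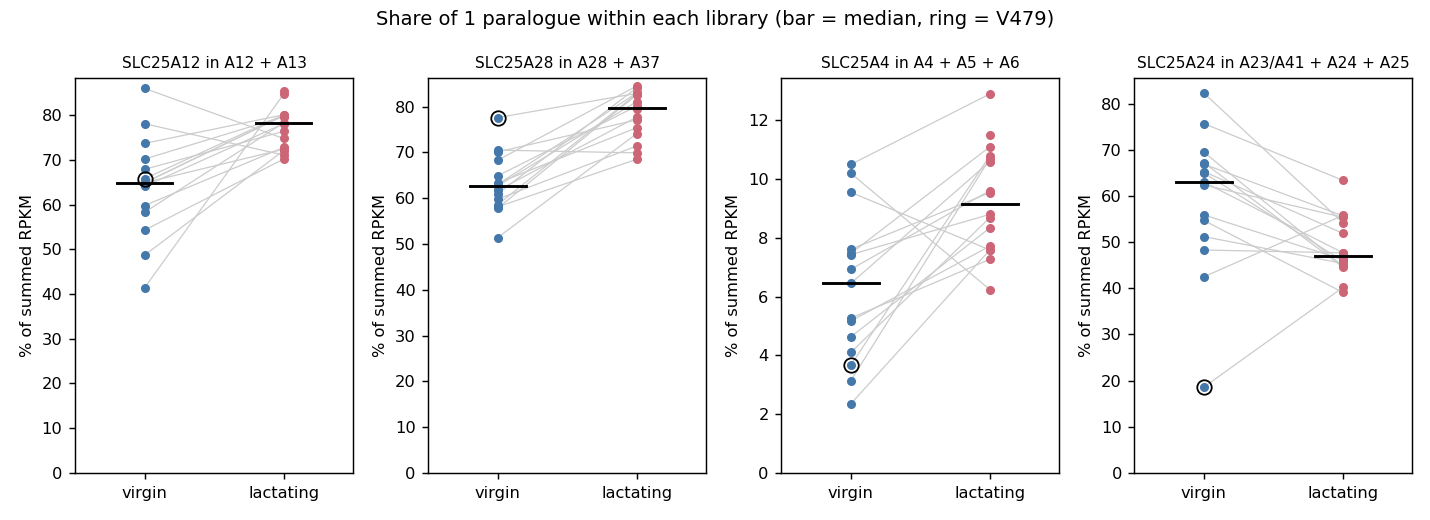
Share of 1 paralogue in the summed RPKM of its set, in percent, for each library; grey lines join the libraries of 1 animal, bars mark medians and the ring marks V479. The shares of SLC25A12, SLC25A28 and SLC25A4 are higher in lactation in 13 to 14 of 15 cows and that of SLC25A24 is lower in 13, with overlap in every panel.

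The pyrimidine nucleotide carriers SLC25A33 and SLC25A36 supply mitochondrial DNA and RNA synthesis. SLC25A36 ran from 20.9 to 534 CPM in virgin (median 143) and from 70.1 to 147 CPM in lactating libraries (median 94.6). It was among the members with the widest virgin range, and V479 lay far under the other virgin libraries. It fell by 0.94 ± 0.25 (adjusted p = 0.00197, edgeR), in 14 of 15 cows, and stood at 0.43 with the marker level as a covariate (adjusted p = 0.499). SLC25A33 stood at 0.00 ± 0.12 (adjusted p = 0.981).

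Among relatives of the uncoupling proteins, SLC25A14 fell and SLC25A27 and SLC25A30 were not called. SLC25A14 ran from 0.324 to 1.04 CPM in virgin (median 0.698) and from 0.0891 to 0.628 CPM in lactating libraries (median 0.362). It fell by 0.94 ± 0.20 (adjusted p = 1.57e-04, edgeR), in 13 of 15 cows, with 5 lactating libraries under the lowest virgin one. The reads behind it were few, 2 to 25 per lactating library. SLC25A30 shares its counts with COG3 over a locus 2.88 times its span. Of the family members under other names, MTCH1, an outer membrane protein, rose by 0.60 ± 0.15 (adjusted p = 8.92e-04), and UCP2 and MTCH2 were not called.

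The last group holds members of less settled substrate. SLC25A46, an outer membrane member tied to mitochondrial fission and lipid exchange, ran from 9.84 to 57.0 CPM in virgin (median 47.7) and from 19.6 to 28.7 CPM in lactating libraries (median 22.6). It fell by 0.83 ± 0.15 (adjusted p = 3.61e-05, edgeR), in 13 of 15 cows. V479 alone lay under the lactating range. SLC25A43 fell by 0.43 ± 0.11 (adjusted p = 0.0011), from a median of 2.07 CPM (1.41 to 2.69) to 1.52 CPM (1.16 to 1.97). In 6 lactating libraries it was under the lowest virgin value. SLC25A34 rose by 0.82 ± 0.18 (adjusted p = 3.62e-04), from a median of 1.44 CPM (0.802 to 3.27) to 2.53 CPM (1.28 to 3.39). V502 was the highest virgin library and the others lay at 1.76 CPM or less, and 13 of 15 cows were higher. V502 was also the highest virgin library for SLC25A21 and for the summed fibroblast markers (21385 CPM, virgin median 986) and adipocyte markers (177 CPM, virgin median 19.6), whose part in these levels was not tested. SLC25A35, its close relative, stood at 0.64 ± 0.33 (adjusted p = 0.0987), and rose by 0.88 without V479 (adjusted p = 0.0135).

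Carriers reach the inner membrane through a receptor at the outer membrane, small chaperones between the membranes and an insertion complex. Of 10 tested genes of this import route none rose and 6 fell (24.2% and 30.9% of all rows). TIMM9, a chaperone, went from 12.9 ± 3.34 (SD, n = 15) to 5.87 ± 1.14 CPM (SD, n = 16), and fell by 1.14 ± 0.13 on the log2 scale in all 15 cows (adjusted p = 1.69e-08, edgeR). AGK, a subunit of the insertion complex, fell by 0.76 ± 0.11 (adjusted p = 1.04e-06). TIMM10B fell by 0.76 ± 0.14 (adjusted p = 3.71e-05) and TIMM13 by 0.63 ± 0.10 (adjusted p = 7.46e-06, over a locus 4.55 times its span). TIMM22, the channel of the complex, stood at 0.10 ± 0.28 (adjusted p = 0.79).

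Of 12 mitochondrial transporters outside the family, 2 rose and 5 fell (24.2% and 30.9% of all rows). MPC2, a subunit of the pyruvate carrier, rose from 5.97 ± 2.87 to 17.3 ± 9.36 CPM (SD, n = 15 and 16), a log2 fold change of 1.53 ± 0.25 (adjusted p = 5.27e-06, edgeR), while its partner MPC1 stood at 0.16 (adjusted p = 0.461). MCU, the pore of the calcium uniporter, fell by 0.74 ± 0.10 in all 15 cows (adjusted p = 4.92e-07). The sideroflexins SFXN4 and SFXN2 fell by 0.96 and 1.07. Of 6 regulators of mitochondrial biogenesis, 1 rose and 1 fell (24.2% and 30.9% of all rows), and 4 were not called. PPARGC1A rose by 1.23 ± 0.35 (adjusted p = 0.0038, edgeR) and NRF1 fell by 0.43 ± 0.13 (adjusted p = 0.0051).

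Lactating libraries were more alike than virgin ones. The SD of log2 CPM was smaller in lactation for 37 of 39 members (94.9%, against 87.2% of all rows), with a median of 0.30 against 0.56. Without V479 it was smaller for 33 (84.6%, against 79.7% of all rows), so the family was near the background in this too. The exceptions with all libraries were SLC25A21, whose SD went from 0.62 to 1.40, and SLC25A14, from 0.46 to 0.56. SLC25A3 and SLC25A43 were among the members of smallest spread at both stages.

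**Figure D4:**
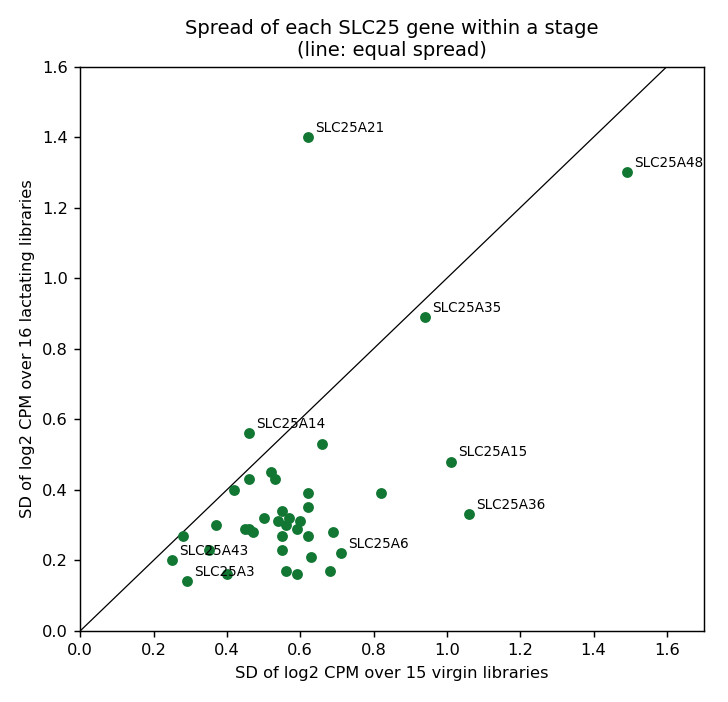
SD of log2 CPM over the 15 virgin libraries (horizontal) and over the 16 lactating libraries (vertical) for each SLC25 locus; the line marks equal spread. SLC25A21 (0.62 and 1.40) lies far above the line, SLC25A14 lies just above it, and the other 37 lie below it.

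Lactating libraries differ widely in milk protein transcripts, and in CPM scaled by TMM factors a few SLC25 genes are ordered with them. The summed CPM of 7 milk protein genes lay between 1572 and 70968 in 7 lactating libraries (L478, L490, L504, L531, L538, L581 and L615) and between 205011 and 658320 in the other 9. Those same 7 libraries were the lowest for SLC25A21 (0.117 to 0.737 CPM, against 0.759 to 2.44 CPM in the rest) and for SLC25A4 (15.8 to 22.7 CPM, against 23.2 to 41.9 CPM). The same held for SLC25A1, the citrate carrier (4.62 to 6.99 CPM, against 7.45 to 17.3 CPM). They were the highest for the locus of SLC25A44, which also holds SEMA4A and LMNA (884 to 1501 CPM, against 543 to 804 CPM). Of all 13180 tested rows, 3.23% had these 7 libraries lowest and 1.37% had them highest. The TMM factors lay between 0.950 and 1.21 in these 7 libraries and between 0.596 and 0.854 in the other 9. Without these factors SLC25A4 and SLC25A1 did not keep this order. SLC25A21 departed from it only in that L490 lay above L509, and the locus of SLC25A44 kept it. The ordering was noticed in the values, so it is a description with no test.

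**Figure D5:**
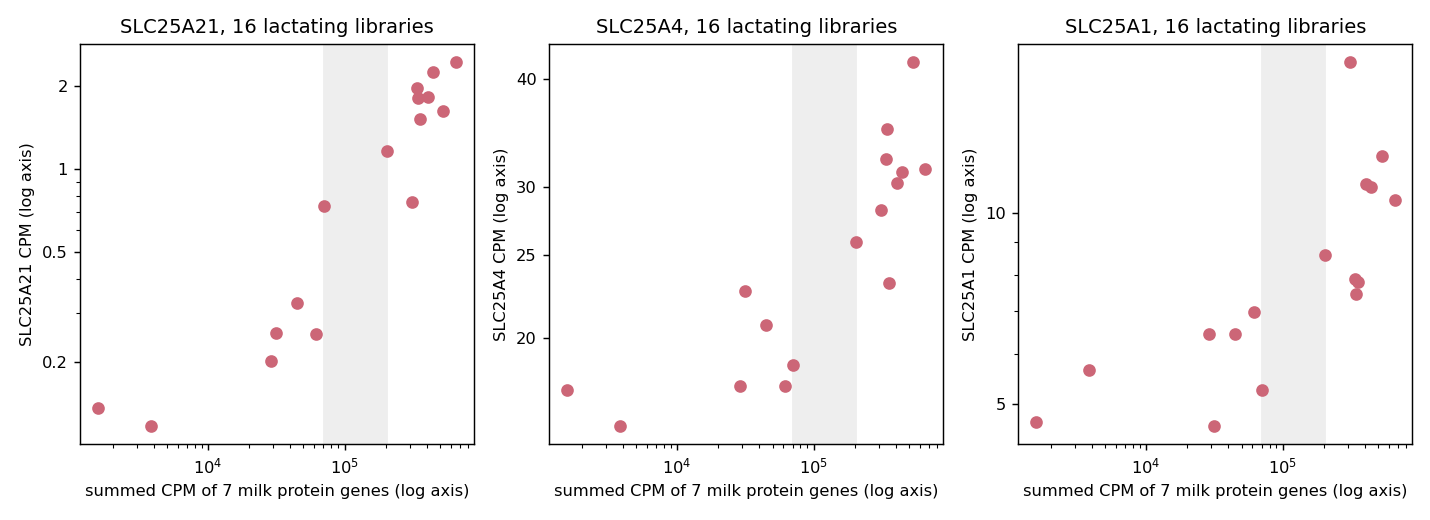
CPM of SLC25A21, SLC25A4 and SLC25A1 against the summed CPM of 7 milk protein genes in the 16 lactating libraries, all axes logarithmic; the grey band spans the gap between 70968 and 205011 summed CPM. In each panel the 7 libraries left of the band are the lowest 7 in CPM scaled by TMM factors.

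Whether a cow high in a carrier as a heifer was high in it in lactation was asked over the 15 cows with both stages. No member was called by Pearson's or Spearman's coefficient after adjustment over all rows (0.387% of rows were by Pearson's). By Pearson's 6 members and by Spearman's 4 had an unadjusted permutation p under 0.05, against 12.1% and 11.5% of all rows. Of the 6, SLC25A13 ran the other way (r = -0.52, permutation p = 0.0436). The median Pearson r was 0.23 for members and 0.22 for all rows. The highest by Pearson's were SLC25A32 (r = 0.61, rho = 0.58, permutation p = 0.0158 and 0.0253, adjusted p = 0.312 and 0.378) and SLC25A26 (r = 0.60, rho = 0.68, permutation p = 0.0179 and 0.00649, adjusted p = 0.323 and 0.253). Without the 2 cows farthest from the virgin median, r was 0.61 and 0.51. Without TMM factors r was 0.27 for SLC25A32 and 0.63 for SLC25A26. SLC25A30 had r = 0.59 and rho = 0.64 (permutation p = 0.0162 and 0.0121, adjusted p = 0.313 and 0.311).

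Beside the counts above, the authors' deposited table of fold changes called 1 member higher (SLC25A21) and 4 lower (SLC25A26, SLC25A46, SLC25A37 and SLC25A14), with 10.8% and 10.3% of its rows called in each direction.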

How the data were processed

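Poly-A RNA of mammary epithelial organoids was sequenced in 31 strand-specific libraries, per the labels' protocols. Read counts per gene were deposited by the authors with no normalization. The second table deposited by the authors holds RPKM values, their log2 fold changes (coded virgin minus lactating) and adjusted p-values. The genome build was UMD3.1, and featureCounts 1.5.2, StringTie 1.3.2, HISAT2 2.0, SAMtools and edgeR were run, per the submitters' processing notes. What each did, and whether counting used strand, is not given in the sources used here.

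Length recovered from count and RPKM was the span of each locus, introns included, so RPKM here is per kilobase of span. For 25 of 40 member rows it was within 10% of the span in RefSeq, whose assembly is another one, so no coordinates are printed. Sequences were not used here. Per-length levels of long genes are thus understated against short ones.

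Counts were tested with edgeR 4.0.16 in R 4.3.3: filterByExpr (minimum count 10, minimum total 15; 13180 of 14084 rows kept), TMM, estimateDisp, robust glmQLFit and glmQLFTest with stage as the only term, and Benjamini-Hochberg adjustment over all tested rows. The SE is the log2 fold change divided by the square root of F. CPM uses TMM-scaled libraries. Alternatives used DESeq2 1.42.0, limma-voom 3.58.1, other scalings and filters, a marker covariate, left-out libraries and the animal as a block. The animal number pairs libraries because the same cows were sampled at both stages. Over 15 pairs the libraries of 1 animal correlated at 0.0673 to 0.392 (mean 0.222) after removal of stage means, against a mean of -0.0161 with other animals. Correlation across cows used 100000 permutations, two-sided. Tested on simulated data of 13153 rows, the fit recovered 27 of 50 rows changed 1.5-fold, 44 of 50 changed 2-fold and 49 of 50 changed 4-fold, with 6 false calls among 176. The changed rows were drawn from those averaging above 1 CPM, a level that SLC25A21, SLC25A14, SLC25A42 and SLC25A27 do not reach. No animal effect or outlying library was simulated, so these rates may not hold for the real libraries.

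Members, lists and tests were chosen with earlier results of these data known. Full statistics were given for members past 2-fold and the 15 others of smallest p, per-library ranges for these and the 6 members of highest RPKM, and list members by smallest p. Further members were added where the block or a left-out library changed their call. Some single-gene results are not reported here, while counts include every member.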

Additional observations from a re-analysis of the deposited data

How the results depend on the processing

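Apart from the fits without TMM factors and with the marker covariate, no SLC25 member called in the main or the alternative fit changed direction. The sign turned without TMM factors for SLC25A17 (-0.36), SLC25A23 (-0.39) and SLC25A33 (-0.49), and with the marker covariate for SLC25A4 (-0.19), SLC25A21 (-0.77), SLC25A29 (0.34), SLC25A36 (0.43) and SLC25A37 (0.24). The cause was not tested. The count of members that rose, 5 in the main fit, was 1 without TMM factors and with the covariate, 9 with the replicate block, in limma-voom and without V479, L478 and L538, 10 with the block and without the cow of V479, and 5 to 8 when 1 library was left out. The count that fell, 13, was 25 without TMM factors, 2 with the covariate and 11 to 13 when 1 library was left out. Over 2-fold, 0 members rose with a minimum of 1 CPM (SLC25A21 is not tested there), with the covariate or in limma-voom, and 1 fell without TMM factors. Rows called over the whole table went to 1389 higher and 7751 lower without TMM factors, and to 1087 and 1590 with the covariate. The fit with the pairing by animal (replicate block), which also leaves out L495, gained 4 members, among them SLC25A1, SLC25A12 and SLC25A28, and lost SLC25A29, SLC25A39 and SLC25A51, and changed no other member's call. SLC25A29 was already lost in the same 30 libraries without the block. Without the cows with lettered virgin titles, SLC25A29, SLC25A39, SLC25A40 and SLC25A51 were lost and no member was gained. The SLC25A39 share of its pair moved by -0.232 points from RPKM and by -1.89 points from counts, which do not correct for length. DESeq2, its size factors, dropping milk protein genes, counting each locus once and no filter on low counts each added SLC25A12 and changed no other call. The 2 fits without the cow of V479 (block) and without V479, L478 and L538 were chosen after seeing the data. Low counts limit SLC25A21, SLC25A14 and SLC25A42 most.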
